A study of Mus musculus with 9 samples.

Results

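The expression of 9 genes of Polycomb repressive complex 1 (PRC1) was examined in long-term haematopoietic stem cells (LT-HSC) of mice. The genes are Ring1, Rnf2, Bmi1, Pcgf1, Pcgf5, Cbx2, Cbx7, Cbx8 and Phc1, taken by name as subunits of the complex. All 9 were measured, each by 1 probe set with a single gene symbol, among 22180 genes tested in the same way. The study compared LT-HSC of 3 genotypes on whole-transcript expression arrays, with 3 biological replicates each and 9 arrays in all. The first genotype is MxCre Jak2VF/+ EZH2-/- (Jak2VF_Ezh2KO), which carries 1 activating mutant allele of the kinase Jak2 and is labelled as lacking Ezh2, the methyltransferase of Polycomb repressive complex 2 (PRC2). The second is MxCre Jak2VF/+ (Jak2VF), and the third is the control, labelled WT. All mice, controls included, were C57BL/6 and were injected at 4 weeks of age with pI-pC, in 5 doses of 300 µg each. Bone marrow was taken 12 weeks after these injections, and LT-HSC were sorted from it by surface staining, as lineage-negative cells positive for c-kit and Sca-1 and negative for CD34 and CD135. MxCre is switched on by the interferon response to pI-pC and acts in blood cells and in other tissues, so recombination need not be limited to stem cells. The sources do not say whether the control mice carried MxCre.

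PRC1 places ubiquitin on histone H2A through the RING proteins Ring1 and Rnf2, and every form of the complex joins either of these to a PCGF protein that defines it. Canonical PRC1 holds Bmi1 or its relative Pcgf2, a CBX protein that binds the H3K27 methylation made by PRC2, and a PHC protein, whereas variant PRC1 holds Rybp or Yaf2 in place of CBX. In blood, Bmi1 is required for the self-renewal of stem cells and represses the Cdkn2a locus, and Cbx7 and Cbx8 are CBX proteins whose relative use has been linked to self-renewal and differentiation.

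RefSeq promoter sequences (GRCm38.p6) were matched by symbol for 7 of the 9 genes, and 4 are shown because these genes had the lowest p-values between Jak2VF_Ezh2KO and WT cells. Each is the 250 bases before the annotated start, read 5′ to 3′ on the gene's strand. Capitals mark matches on either strand to the E-box CACGTG, the GC box GGGCGG, the CCAAT box CCAAT or the STAT-type palindrome TTCNNNGAA, and neighbouring or overlapping matches run together. The Bmi1 window is chr2:18676768-18677017 on the plus strand, that of Cbx7 chr15:79932647-79932896 on the minus strand, that of Pcgf5 chr19:36348079-36348328 on the plus strand, and that of Cbx8 chr11:119040914-119041163 on the minus strand. For Pcgf5, 3 starts are listed and 1 is shown.
Bmi1: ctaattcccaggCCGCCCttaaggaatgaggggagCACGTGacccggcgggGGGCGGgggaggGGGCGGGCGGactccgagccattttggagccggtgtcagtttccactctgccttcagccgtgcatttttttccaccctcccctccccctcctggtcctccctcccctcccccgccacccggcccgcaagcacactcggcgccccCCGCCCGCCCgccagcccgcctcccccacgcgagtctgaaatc
Cbx7: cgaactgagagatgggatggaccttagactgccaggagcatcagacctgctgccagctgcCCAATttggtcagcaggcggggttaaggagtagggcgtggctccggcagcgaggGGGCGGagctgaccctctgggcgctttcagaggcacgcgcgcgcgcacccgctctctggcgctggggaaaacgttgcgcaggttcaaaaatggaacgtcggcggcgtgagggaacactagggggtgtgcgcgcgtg
Pcgf5: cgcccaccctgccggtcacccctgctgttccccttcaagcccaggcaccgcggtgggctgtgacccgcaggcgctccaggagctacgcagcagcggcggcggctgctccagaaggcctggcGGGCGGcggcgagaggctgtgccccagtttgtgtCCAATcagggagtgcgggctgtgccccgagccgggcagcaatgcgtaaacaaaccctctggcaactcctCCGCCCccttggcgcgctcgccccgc
Cbx8: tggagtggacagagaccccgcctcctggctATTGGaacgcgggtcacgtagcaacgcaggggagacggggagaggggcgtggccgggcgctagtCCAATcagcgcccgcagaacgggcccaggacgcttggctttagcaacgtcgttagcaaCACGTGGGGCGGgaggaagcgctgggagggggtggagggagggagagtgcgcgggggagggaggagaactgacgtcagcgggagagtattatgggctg
The 4 windows are rich in CpG, with 21 in Bmi1, 23 in Cbx7, 23 in Pcgf5 and 22 in Cbx8, against a median of 6 over 32851 promoters. As many CpG as in Bmi1 were found in 16.3% of all promoters, and as many as in Cbx7 in 13.3%. Phc1 had the fewest among the 7 genes, with 8 CpG, and Ring1 the most, with 30. The E-box lies in 6.02% of all promoters of this length and was found in Bmi1, 215 bases before the start, and in Cbx8, 98 bases before it. The GC box lies in 32.7% of promoters and was found 6 times in Bmi1, 2 times in Pcgf5 and 1 time each in Cbx7 and Cbx8, overlapping matches counted. The CCAAT box lies in 33.8% of promoters and was found in Cbx7, Pcgf5 and Cbx8. The STAT-type palindrome lies in 7.02% of promoters and was found in none of the 4 windows shown. Of the 7 genes, only Phc1 held it, with 1 match in a window not shown. A match describes the letters of the window and not binding by a factor.

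The deposited values are log2 signals, and differences below are on that log2 scale with standard errors (SE) from limma, fitted on all 22180 genes. Array medians over all probe sets ran between 5.51 and 5.67, and the correlation between any 2 arrays over probe sets between 0.90 and 0.97. Ezh2, the targeted gene, had signals of 8.47, 8.08 and 8.42 in Jak2VF_Ezh2KO cells, 8.87, 9.09 and 8.78 in Jak2VF cells, and 8.48, 8.81 and 8.69 in WT cells. It was lowest in the knockout cells on all 3 arrays, by 0.59 ± 0.16 (SE) against Jak2VF (adjusted p = 0.411, limma) and by 0.34 ± 0.16 against WT (adjusted p = 0.596), so the lower signal did not pass the test; the sources do not say which exons its probe set covers. The 11 stem cell markers measured, such as Procr (7.01 to 8.19 over the arrays) and Hlf (7.83 to 8.80), averaged above the median gene signal of 5.76. Cd34 had signals of 9.91 to 10.7 and Flt3, which encodes CD135, of 6.91 to 8.03, although the sort selected cells negative for both proteins. None of the stem cell markers passed the adjusted test in any comparison. Between Jak2VF and WT, 8 of the 11 were lower and 3 higher in Jak2VF (median -0.15). Between Jak2VF_Ezh2KO and WT, 7 were lower and 4 higher in Jak2VF_Ezh2KO (median -0.16). Against Jak2VF, 6 were higher and 5 lower in Jak2VF_Ezh2KO (median 0.008). Their summed level was the log2 of the sum of linear signals. It was 11.4 to 11.8 in Jak2VF_Ezh2KO, 11.6 to 11.7 in Jak2VF and 11.7 to 11.8 in WT cells. Bright genes such as Kit (mean 9.79) and Meis1 (mean 9.51) weigh most in that sum. Replicates 1 and 2 of Jak2VF_Ezh2KO carried signal of Y-linked genes, with a mean of at least 6.66 over 3 such genes, against at most 4.08 on the other 7 arrays. Of the 41345 probe sets, 15272 hold exactly the same value on 2 or more arrays, among them those of 4 of the 9 genes (Cbx2, Cbx8, Rnf2 and Phc1).

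None of the 9 PRC1 genes passed an adjusted p of 0.05 in any comparison, and few genes did at all. Between Jak2VF_Ezh2KO and Jak2VF cells 10 of 22180 genes passed (0.0451%), between Jak2VF_Ezh2KO and WT 5 (0.0225%), and between Jak2VF and WT none (0%, with 1034 genes at an unadjusted p under 0.05). A test of any difference among the 3 groups was passed by 6 genes (0.0271%) and by none of the 9. The values below are therefore given with their intervals, and a p that misses the threshold does not show that the groups were alike. In these bulk samples, fewer cells of a type and less RNA per cell cannot be told apart. The comparisons share arrays, since each group enters a pair of them.

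**Figure D1:**
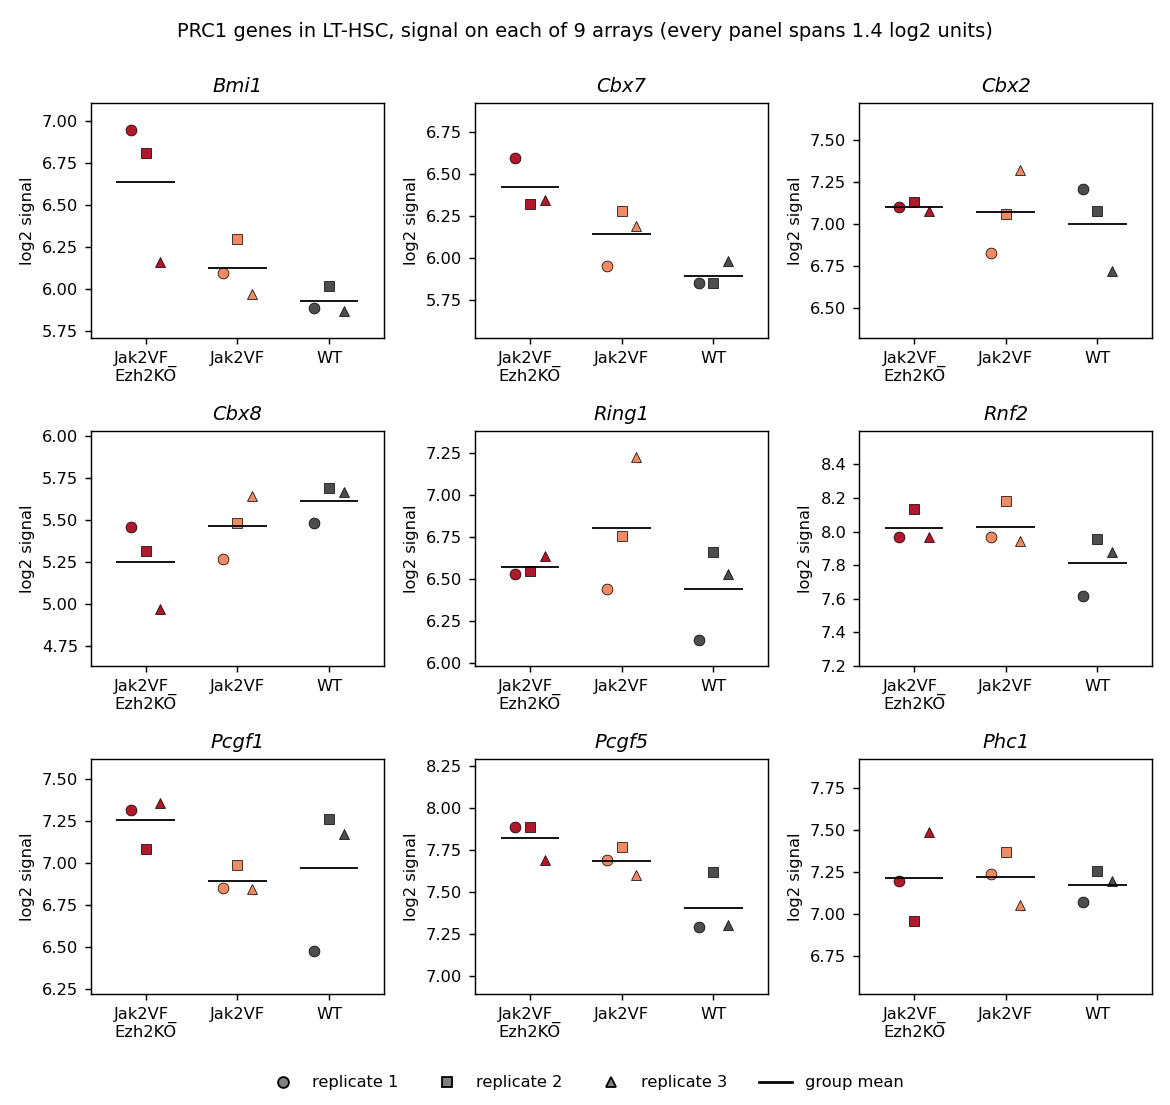
Log2 signal of the 9 PRC1 genes on each array, in panels that each span 1.4 log2 units; the horizontal axis gives the genotype, symbols give the replicate and bars the group mean (n = 3). Bmi1, Cbx7, Pcgf5 and, by small margins, Cbx2 are highest in Jak2VF_Ezh2KO cells by group mean and lowest in WT cells. Cbx8 runs the other way, and Ring1, Cbx2 and Phc1 overlap in every comparison.

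Of the catalytic RING subunits, Rnf2 (RING1B), the main H2A ubiquitin ligase in most cells, had signals of 7.97, 8.14 and 7.97 in Jak2VF_Ezh2KO cells, 7.97, 8.18 and 7.94 in Jak2VF cells, and 7.62, 7.95 and 7.88 in WT cells. The knockout arrays all lay above the WT arrays, though the nearest values differed by little, and they overlapped the Jak2VF arrays. Rnf2 was higher by 0.21 in Jak2VF_Ezh2KO than in WT (95% interval -0.10 to 0.51, adjusted p = 0.697, limma), and by 0.21 in Jak2VF than in WT (-0.09 to 0.52, adjusted p = 0.924). Without WT replicate 1 both differences were 0.11. Between Jak2VF_Ezh2KO and Jak2VF cells the difference was -0.01, with an interval of -0.31 to 0.30. Ring1 (RING1A), the second ligase, had signals of 6.53, 6.54 and 6.64 in Jak2VF_Ezh2KO cells, 6.44, 6.75 and 7.23 in Jak2VF cells, and 6.13, 6.66 and 6.53 in WT cells. The knockout arrays lay close together and inside the spread of both other groups, and the highest value was that of Jak2VF replicate 3. Ring1 differed by -0.24 between Jak2VF_Ezh2KO and Jak2VF (interval -0.70 to 0.23), and without Jak2VF replicate 3 by -0.03. It was higher by 0.37 in Jak2VF than in WT (-0.10 to 0.83, unadjusted p = 0.108, adjusted p = 0.924, limma), which became 0.16 without that array. Without Jak2VF replicate 1 instead, these differences were -0.42 and 0.55.

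Among the PCGF subunits, Bmi1 had the widest differences between Jak2VF_Ezh2KO and each other genotype. Its signals were 6.94, 6.81 and 6.16 in Jak2VF_Ezh2KO cells, 6.10, 6.30 and 5.97 in Jak2VF cells, and 5.89, 6.02 and 5.87 in WT cells. Replicates 1 and 2 of the knockout stood well above all other arrays, whereas replicate 3 lay within the range of the Jak2VF arrays and just above the WT arrays. Bmi1 averaged 6.64 ± 0.42 in Jak2VF_Ezh2KO and 5.93 ± 0.08 in WT cells (SD, n = 3 each), a difference of 0.71 ± 0.20 (SE), or 1.64-fold in signal. The 95% interval was 0.27 to 1.16, the unadjusted p was 0.00510 and the adjusted p 0.438 (limma). A difference of this size or larger in either direction was seen in 2.91% of all genes. Against Jak2VF cells, which averaged 6.12 ± 0.17, Bmi1 was higher in the knockout by 0.52 ± 0.20 (interval 0.07 to 0.96, unadjusted p = 0.0269, adjusted p = 0.646, limma). Between Jak2VF and WT cells the difference was 0.20, with an interval of -0.25 to 0.64, and 0.11 without Jak2VF replicate 2.

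The arrays with high Bmi1 signal were the same 2 Jak2VF_Ezh2KO arrays that carried Y-linked signal. With a term for that signal, which leaves replicate 3 as the only array for the genotype, Bmi1 was higher by 0.23 in Jak2VF_Ezh2KO than in WT (adjusted p = 0.986, limma) and by 0.04 than in Jak2VF (adjusted p = 1). Without replicate 3 alone the same differences were 0.95 and 0.76. Under the same term, Pcgf5 differed by 0.28 between Jak2VF_Ezh2KO and WT and Cbx7 by 0.45, against 0.41 and 0.53 without it, while Cbx8 differed by -0.64, against -0.36 without it. Since all arrays with Y-linked signal belong to 1 genotype, the sex of the mouse and the replicate cannot be told apart.

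Pcgf5, the PCGF protein of a variant complex that ubiquitinates H2A widely, had signals of 7.88, 7.89 and 7.69 in Jak2VF_Ezh2KO cells, 7.69, 7.76 and 7.60 in Jak2VF cells, and 7.29, 7.62 and 7.30 in WT cells. All knockout arrays lay above all WT arrays, and the Jak2VF arrays lay between, overlapping both groups. Pcgf5 was higher by 0.41 ± 0.14 (SE) in Jak2VF_Ezh2KO than in WT cells, or 1.33-fold (interval 0.11 to 0.72, unadjusted p = 0.0123, adjusted p = 0.475, limma). The difference was 0.13 between Jak2VF_Ezh2KO and Jak2VF (-0.17 to 0.44) and 0.28 between Jak2VF and WT (-0.02 to 0.58, unadjusted p = 0.0660, adjusted p = 0.924, limma). Pcgf1, the PCGF protein of the variant complex with Kdm2b and Bcor, had signals of 7.32, 7.09 and 7.36 in Jak2VF_Ezh2KO cells, 6.85, 6.99 and 6.85 in Jak2VF cells, and 6.48, 7.26 and 7.18 in WT cells. The knockout arrays all lay above the Jak2VF arrays, while the WT arrays overlapped both groups, with replicate 1 the lowest of all. Pcgf1 was higher by 0.36 in Jak2VF_Ezh2KO than in Jak2VF (-0.09 to 0.81, unadjusted p = 0.102, adjusted p = 0.759, limma). Against WT it was higher by 0.28 (-0.16 to 0.73), and by 0.04 when WT replicate 1 was left out.

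Of the CBX proteins, Cbx7 had signals of 6.59, 6.32 and 6.34 in Jak2VF_Ezh2KO cells, 5.95, 6.28 and 6.19 in Jak2VF cells, and 5.85, 5.85 and 5.98 in WT cells. All knockout arrays lay above all arrays of both other groups, which overlapped each other. Cbx7 averaged 6.42 ± 0.15 in Jak2VF_Ezh2KO and 5.89 ± 0.08 in WT cells (SD, n = 3 each). The difference of 0.53 ± 0.14 (SE), or 1.44-fold, had an interval of 0.22 to 0.83 and the lowest p of the 9 genes (unadjusted p = 0.00337, adjusted p = 0.411, limma). Leaving out any array in turn kept it between 0.44 and 0.58. Against Jak2VF cells the difference was 0.28 (-0.03 to 0.59, unadjusted p = 0.0685, adjusted p = 0.738, limma), or 0.19 without Jak2VF replicate 1, and between Jak2VF and WT 0.25 (-0.06 to 0.55).

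Cbx8 ran the other way. Its signals were 5.46, 5.32 and 4.97 in Jak2VF_Ezh2KO cells, 5.27, 5.48 and 5.64 in Jak2VF cells, and 5.48, 5.69 and 5.67 in WT cells. The knockout arrays all lay below the WT arrays, by a narrow margin for replicate 1, and overlapped the Jak2VF arrays. Cbx8 was lower in Jak2VF_Ezh2KO than in WT cells, with a difference of -0.36 ± 0.16 (SE) and an interval that ended just below 0 (unadjusted p = 0.0486, adjusted p = 0.580, limma). Without Jak2VF_Ezh2KO replicate 3, its lowest array, this was -0.23. The difference was -0.22 between Jak2VF_Ezh2KO and Jak2VF (-0.58 to 0.15) and -0.15 between Jak2VF and WT (-0.51 to 0.21). The first was -0.076 without Jak2VF_Ezh2KO replicate 3, and the second -0.051 without Jak2VF replicate 1. Cbx8 was the only gene of the 9 below the median gene signal of 5.76. In WT cells Bmi1 and Cbx7 lay little above it, with means of 5.93 and 5.89.

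Cbx2, the CBX protein with the strongest chromatin-compacting activity, had signals of 7.10, 7.13 and 7.08 in Jak2VF_Ezh2KO cells, 6.83, 7.06 and 7.32 in Jak2VF cells, and 7.21, 7.08 and 6.72 in WT cells. The knockout arrays lay within the range of both other groups. Its differences were 0.03 between Jak2VF_Ezh2KO and Jak2VF (-0.34 to 0.41), 0.10 between Jak2VF_Ezh2KO and WT (-0.27 to 0.48) and 0.07 between Jak2VF and WT (-0.31 to 0.44). Phc1, whose SAM domain forms chains that cluster PRC1, had signals of 7.19, 6.96 and 7.48 in Jak2VF_Ezh2KO cells, 7.24, 7.37 and 7.05 in Jak2VF cells, and 7.07, 7.26 and 7.19 in WT cells. The groups overlapped in every comparison, and the knockout arrays were the most spread. Its differences of -0.01 between Jak2VF_Ezh2KO and Jak2VF, 0.04 between Jak2VF_Ezh2KO and WT and 0.05 between Jak2VF and WT were smaller than their SE of 0.16. With the term for Y-linked signal, or without the arrays that carry it, the differences of Jak2VF_Ezh2KO were 0.26 against Jak2VF and 0.31 against WT.

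**Figure D2:**
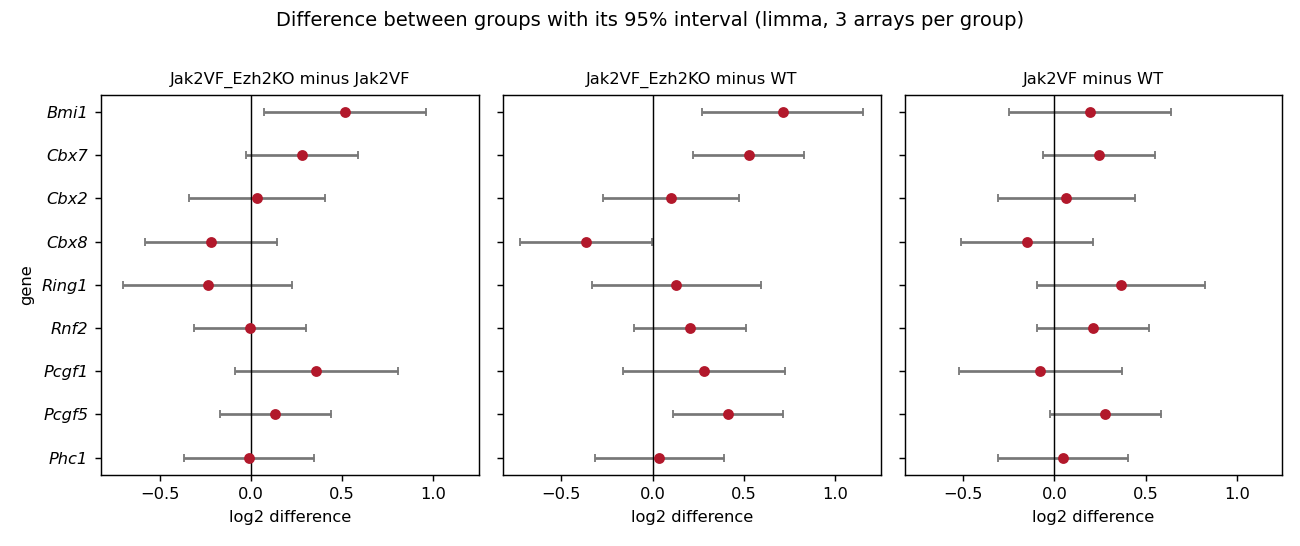
Differences in log2 signal for the 9 PRC1 genes, 1 panel per comparison, with bars for the 95% interval of the limma fit (3 arrays per group). Intervals that leave out 0 are those of Bmi1 in both comparisons of Jak2VF_Ezh2KO and of Cbx7, Pcgf5 and Cbx8 against WT, before any adjustment for the number of genes.

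As a group, most of the 9 genes had positive differences in both mutant genotypes against WT. Between Jak2VF_Ezh2KO and WT cells 8 of 9 differences were positive and 1 negative, though Phc1 turned to -0.00380 after quantile normalization. Their median was 0.21, while the median over all genes was -0.02 and 46.5% of genes were positive. An unadjusted p under 0.05 was reached by 4 of the 9 (Bmi1, Cbx7 and Pcgf5 higher, Cbx8 lower), and by 8.6% of all genes. The groups' arrays did not overlap for 5 of the 9 (Bmi1, Cbx7, Pcgf5 and Rnf2 higher, Cbx8 lower), and for 12.9% of all genes. Between Jak2VF_Ezh2KO and Jak2VF cells 5 differences were positive and 4 negative, of which Phc1 and Rnf2 turned positive after quantile normalization (0.013 and 0.037), and the median was 0.03 against -0.04 over all genes, of which 41.8% were positive. There Bmi1 reached an unadjusted p under 0.05, as did 6.89% of all genes, and the groups' arrays did not overlap for Cbx7 and Pcgf1 (higher in Jak2VF_Ezh2KO), or for 11.1% of all genes. Between Jak2VF and WT cells 7 were positive and 2 negative, with Phc1 at -0.016 after quantile normalization. The median was 0.20 against 0.03 over all genes, of which 55.8% were positive. None of the 9 reached an unadjusted p under 0.05, against 4.66% of all genes, and the arrays overlapped for all 9, while they did not for 6.11% of all genes. In limma's F-test of any difference among the groups, Cbx7, Bmi1 and Pcgf5 were under 0.05 unadjusted, as were 6.88% of all genes. Their adjusted p in that limma test were 0.582 for Cbx7, 0.603 for Bmi1 and 0.688 for Pcgf5. The members were taken with earlier results of these data known, so these counts are descriptions.

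**Figure D3:**
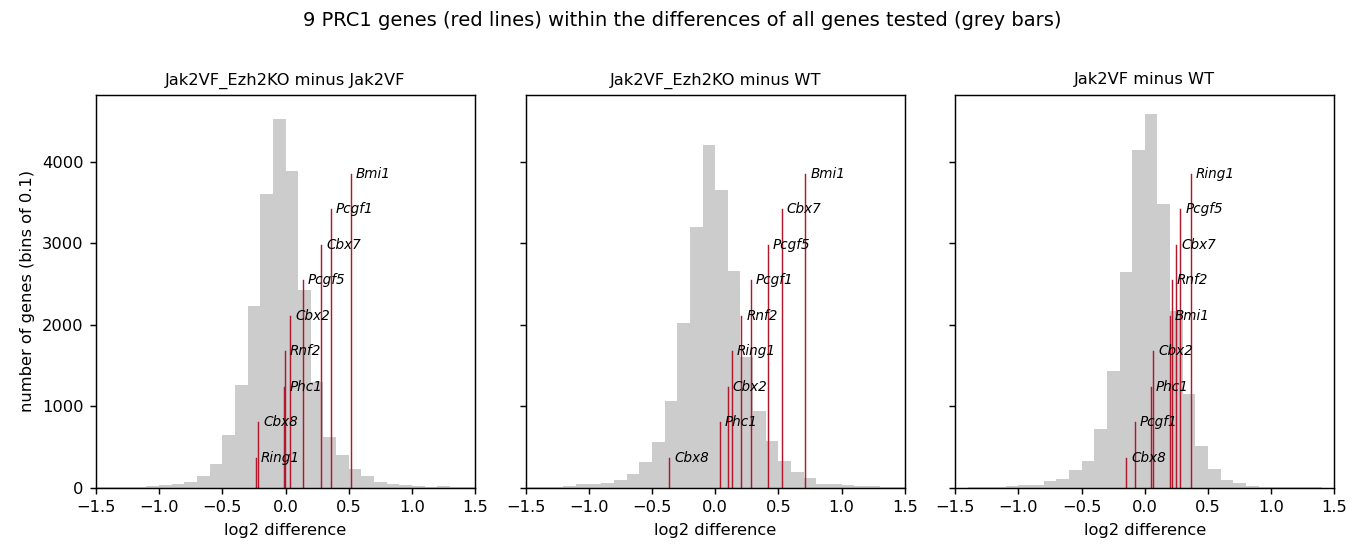
Number of genes (vertical axis, bins of 0.1) by log2 difference for all 22180 genes, 1 panel per comparison, with red lines at the 9 PRC1 genes; line heights only separate the names. Between Jak2VF_Ezh2KO and WT cells 8 of the 9 lines lie right of 0 and Cbx8 lies left, and differences beyond 1.5 are outside the axes.

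The mean of the 9 genes, each taken relative to its WT mean, was 0.30, 0.22 and 0.16 on the Jak2VF_Ezh2KO arrays, 0.01, 0.21 and 0.17 on the Jak2VF arrays, and -0.14, 0.13 and 0.01 on the WT arrays. The knockout arrays lay above the WT arrays and overlapped the Jak2VF arrays, and WT replicate 1 was the lowest of all. Markers of other lineages were read beside these values. Of 9 T and NK cell markers, all were higher in Jak2VF_Ezh2KO than in WT, with a median difference of 1.396 and none past the adjusted test. In Jak2VF_Ezh2KO 7 were higher and 2 lower than in Jak2VF (median 0.84, none past the adjusted test). In Jak2VF 5 were higher and 4 lower than in WT (median 0.002, none past the adjusted test). The summed level of these markers was 10.7 to 11.2 in Jak2VF_Ezh2KO, 10.4 to 10.7 in Jak2VF and 9.80 to 10.3 in WT cells. Of 9 mast cell and basophil markers, all were higher in Jak2VF_Ezh2KO than in WT. In that comparison 1 of them, the mast cell protease Cma1, passed the adjusted test. Against Jak2VF, 4 were higher and 5 lower in Jak2VF_Ezh2KO (median -0.08), and 1 of the higher ones passed the adjusted test there too. Kit and Gata2 are in this list and also among the stem cell markers. The summed level of the list was 10.9 to 11.3 in Jak2VF_Ezh2KO, 10.8 to 11.1 in Jak2VF and 10.4 to 10.7 in WT cells. All 7 erythroid markers were higher in Jak2VF_Ezh2KO than in WT (median 0.49, none past the adjusted test), with a summed level of 12.1 to 12.4 in Jak2VF_Ezh2KO and 11.8 to 12.4 in WT cells. Of 10 neutrophil and monocyte markers 7 were higher in Jak2VF_Ezh2KO than in WT (median 0.48, none past the adjusted test), with a summed level of 10.1 to 11.4 in Jak2VF_Ezh2KO and 9.66 to 10.8 in WT cells. Of 8 B cell markers 7 were higher in Jak2VF_Ezh2KO than in WT (median 0.26, none past the adjusted test), with a summed level of 8.32 to 9.81 in Jak2VF_Ezh2KO and 8.58 to 9.02 in WT cells. Of 7 megakaryocyte markers, 6 were higher in Jak2VF than in WT (median 0.58, none past the adjusted test), and all 7 were lower in Jak2VF_Ezh2KO than in Jak2VF, where the integrin gene Itga2b passed. Their summed level was 10.2 to 10.6 in Jak2VF_Ezh2KO, 10.7 to 11.4 in Jak2VF and 10.3 to 10.8 in WT cells. All 18 cell cycle genes were higher in Jak2VF than in WT (median 0.33), with none past the adjusted test. In Jak2VF_Ezh2KO 15 were lower and 3 higher than in Jak2VF (median -0.18), and 11 were higher and 7 lower than in WT (median 0.08). The part of such cells or of cycling in the PRC1 values was not tested.

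Across the 9 arrays, 25 of the 36 pairs of PRC1 genes were positively correlated, with a median Pearson r of 0.22. After adjustment over the 36 pairs, no Pearson correlation passed in the exact permutation test (smallest adjusted p = 0.129), and 4 pairs had an unadjusted p under 0.05. Bmi1 and Pcgf5 varied together most closely, with r = 0.84 (exact permutation p = 0.0128, adjusted 0.153) and Spearman rho = 0.95 (exact permutation p = 0.000353, adjusted 0.0127). Without the 2 arrays with the most extreme Bmi1 signal, Jak2VF_Ezh2KO replicates 1 and 2, r was 0.89, and after removing the group means it was 0.71. Bmi1 and Cbx7 had r = 0.81 (exact permutation p = 0.00358, adjusted 0.129) and rho = 0.77 (p = 0.0214, adjusted 0.193), with r = 0.66 without the same arrays and 0.40 within groups. Rnf2 and Pcgf5 had r = 0.80 (exact permutation p = 0.00785, adjusted 0.141) and rho = 0.87 (p = 0.00368, adjusted 0.0663), with r = 0.77 without the 2 arrays farthest in Rnf2 and 0.68 within groups. Cbx7 and Pcgf5 had r = 0.74 (exact permutation p = 0.0217, adjusted 0.195) and rho = 0.70 (p = 0.0433, adjusted 0.311), with r = 0.56 without the 2 arrays farthest in Cbx7 and 0.06 within groups. Bmi1 and Cbx8 had r = -0.28 (exact permutation p = 0.473, adjusted 0.804) and rho = -0.58 (p = 0.110, adjusted 0.440), with r = -0.50 without Jak2VF_Ezh2KO replicates 1 and 2 and 0.65 within groups. By Spearman's rho, Bmi1 and Pcgf5 were the only pair of the 36 with an adjusted p under 0.05. The permutations exchanged arrays across genotypes, so a group difference shared by both genes of a pair adds to their correlation. The r within groups were not tested.

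**Figure D4:**
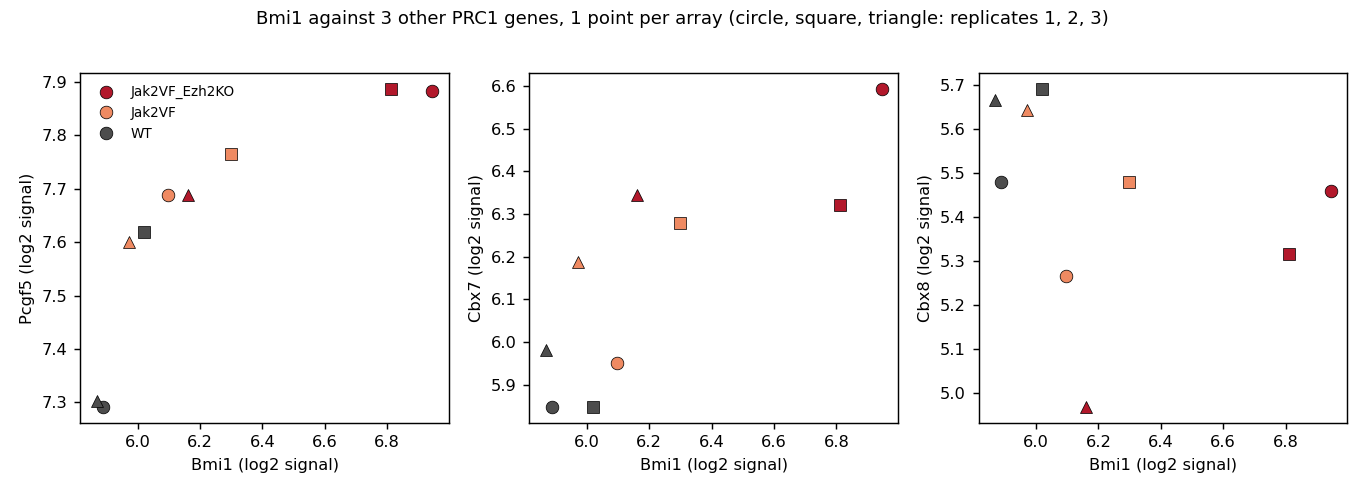
Log2 signal of Pcgf5, Cbx7 and Cbx8 (vertical axes) against Bmi1 (horizontal axis), 1 point per array, coloured by genotype and shaped by replicate. Pcgf5 follows Bmi1 across the arrays (rho = 0.95), Cbx7 less closely (rho = 0.77), and Cbx8 runs the other way in rank (rho = -0.58, not past the test).

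The genes whose signal was most like that of each PRC1 gene were sought among 10071 named genes above the median signal, by Pearson r over the 9 arrays. For Bmi1 they were Sec62 (0.94), Ext1 (0.93) and Endog (0.93), with r of 0.77 to 0.85 within groups. For Cbx7 they were Atp5md (0.95), Tstd3 (0.95) and Cenpv (0.93), and for Pcgf5 Zfp882 (0.96), Tjp1 (0.96) and Gsdmd (0.95). For Rnf2 they were Clcc1 (0.99), Fancl (0.97) and Gstcd (0.97), and for Ring1 Mcoln1 (0.97), Pam (0.97) and Bcl9l (0.96). For Pcgf1 they were Lyst (0.97), Lrba (0.94) and Rad1 (0.93), and for Phc1 Fbxo7 (0.96), Zdhhc20 (0.94) and U2af1 (0.94). For Cbx2 they were Mfsd7a (0.98), Ephb6 (0.96) and Fahd1 (0.94), and for Cbx8 Zranb2 (0.93), Rnft1 (0.90) and Ccdc9 (0.89). None of the 27 is another PRC1 gene of the 9, and with 9 arrays and this many candidates such values are descriptions of these arrays.

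The rest of the complex and its partners were read from lists. Of 5 other canonical PRC1 genes measured (Pcgf2, Phc2, Phc3, Scmh1 and Scml2), none had an unadjusted p under 0.05 in any comparison. Phc3, a relative of Phc1, had signals of 7.06, 6.98 and 6.91 in Jak2VF_Ezh2KO cells, 6.87, 7.004 and 6.87 in Jak2VF cells, and 6.41, 6.80 and 6.84 in WT cells. It lay above WT on all arrays of both mutant genotypes, by 0.30 in Jak2VF_Ezh2KO (limma, adjusted p = 0.605). Of 22 other variant PRC1 genes, none passed the adjusted test. Between Jak2VF_Ezh2KO and Jak2VF cells 6 were positive and 16 negative, with a median of -0.23 against -0.04 over all genes. The lowest p there were those of Cbx3, the heterochromatin protein of the Pcgf6 complex (-0.53, adjusted p = 0.558, limma), and the deacetylase Hdac2 (-0.35, adjusted p = 0.707). Between Jak2VF and WT cells Yaf2, the Rybp relative, was higher by 0.58 (adjusted p = 0.924, limma), and the scaffold gene Dcaf7 by 0.56 (adjusted p = 0.924). Between Jak2VF_Ezh2KO and WT, Hdac2 differed by -0.36 and the kinase gene Csnk2a1 by -0.35 (adjusted p = 0.567 and 0.549, limma).

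None of the 9 genes for H2A deubiquitinases and their partners passed the adjusted test. Mysm1, an H2A deubiquitinase required in blood stem cells, had signals of 7.03, 6.66 and 6.89 in Jak2VF_Ezh2KO cells, 7.39, 7.46 and 7.11 in Jak2VF cells, and 7.28, 7.52 and 7.42 in WT cells. It was lowest on the knockout arrays, with differences of -0.46 against Jak2VF (unadjusted p = 0.0127, adjusted p = 0.550, limma) and -0.54 against WT (unadjusted p = 0.00491, adjusted p = 0.438). Asxl1, the partner of the deubiquitinase Bap1, was higher by 0.46 in Jak2VF_Ezh2KO than in WT (adjusted p = 0.531, limma), and the Bap1 partner Foxk2 was lower in Jak2VF_Ezh2KO than in Jak2VF, with a difference of -0.41 (adjusted p = 0.712). Of 12 PRC2 genes none passed, and beside Ezh2 only the accessory gene Mtf2 had an unadjusted p under 0.05 (-0.39 between Jak2VF_Ezh2KO and Jak2VF, adjusted p = 0.689, limma). Of the 4 genes of the Ink4 loci, Cdkn2a, the textbook target of Bmi1, had signals of 5.90 on all 3 Jak2VF_Ezh2KO arrays, 5.73, 5.85 and 6.21 in Jak2VF cells, and 5.95, 6.03 and 5.90 in WT cells. The same value recurs on 4 arrays, and the differences were -0.03 between Jak2VF_Ezh2KO and Jak2VF (interval -0.34 to 0.29) and -0.06 between Jak2VF_Ezh2KO and WT (-0.37 to 0.26). Cdkn2d differed by -0.49 between Jak2VF_Ezh2KO and Jak2VF (unadjusted p = 0.0495, adjusted p = 0.724, limma).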

How the data were processed

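RNA of sorted LT-HSC was amplified, biotin-labelled and hybridised to 1 array per sample (9 arrays, 3 per genotype). The deposited value table holds log2 signals per probe set made by the authors, with Partek 6.6 named in the submitters' processing notes; background correction, normalization and build are not given there or in the other sources used. Of 41345 probe sets, 23521 carry 1 gene symbol in the platform annotation, 1814 several and 16010 none. Each gene was represented by its brightest single-symbol probe set (mean over the 9 arrays), for 22180 genes. These were fitted without further normalization in limma 3.58.1 (R 4.3.3, lmFit and eBayes) with 3 groups and no covariate, and p-values were Benjamini-Hochberg adjusted over all genes (threshold 0.05). The script was tested on simulated data. The labels call samples biological replicates; their number limits the precision. The labels give no litter, batch or day shared by a replicate number, so arrays were not paired in the main fit. Deviations of same-numbered arrays from their group means had correlations between -0.23 and 0.48. With 3 arrays per group these values cannot settle whether same-numbered arrays share a batch. Correlations between members were tested over all 362880 orders of the arrays, without regard to genotype. The 9 genes, the gene lists and the rules were chosen with earlier results of these data known. Text names all 9 genes, Ezh2 and the 3 most alike genes per member. It also names listed Polycomb genes that pass or have the lowest unadjusted p under 0.05 (up to 3 per list and comparison). Phc3, Cdkn2a, Cma1, Itga2b and the markers Procr, Hlf, Kit, Gata2, Meis1, Cd34 and Flt3 were named after their values were seen. Cbx6, Kdm2b, Bcor and Csnk2b have no probe set with 1 symbol among those used. Alternatives changed the normalization, the dim-probe filter, the variance model, the arrays and a term for Y-linked signal.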

Additional observations from a re-analysis of the deposited data

How the results depend on the processing

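The 27 differences (9 genes in 3 comparisons) had no adjusted p under 0.05 under any alternative run, where the lowest were 0.161 for Bmi1 (without Jak2VF_Ezh2KO replicate 3), 0.194 for Cbx7 (array weights) and 0.190 for Pcgf5 (without WT replicate 2), each between Jak2VF_Ezh2KO and WT. Of 294 values under alternatives other than leaving out 1 array, 285 kept their direction and 9 did not. These 9 belong to Phc1 and Rnf2, whose differences are near 0, and the cause was not tested. Phc1 between Jak2VF_Ezh2KO and Jak2VF (-0.01) was 0.013 after quantile normalization, 0.000757 with arrays centred on their medians, 0.058 with array weights, and 0.26 both with the term for Y-linked signal and without the arrays that carry it. Phc1 after quantile normalization was -0.00380 between Jak2VF_Ezh2KO and WT and -0.016 between Jak2VF and WT. Rnf2 between Jak2VF_Ezh2KO and Jak2VF was 0.037 after quantile normalization and 0.00355 with centring. Leaving out 1 array kept the direction of 225 of 243 values. The ranges that cross 0 were, between Jak2VF_Ezh2KO and Jak2VF, -0.086 to 0.16 for Cbx2, -0.15 to 0.12 for Phc1 and -0.063 to 0.069 for Rnf2. Between Jak2VF_Ezh2KO and WT they were -0.041 to 0.20 for Cbx2, -0.099 to 0.17 for Phc1 and -0.023 to 0.24 for Ring1. Between Jak2VF and WT they were -0.076 to 0.19 for Cbx2, -0.028 to 0.13 for Phc1 and -0.32 to 0.067 for Pcgf1.

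The count of all genes that pass was small and moved with most settings. Between Jak2VF_Ezh2KO and Jak2VF (10 genes) it was 4 with centring, 19 without the dimmer genes, 1529 unadjusted, 2466 by lack of overlap, and 0 to 17 when 1 array was left out. Between Jak2VF_Ezh2KO and WT (5 genes) it was 3 with centring, 10 with an intensity trend, 14 with array weights, 1908 unadjusted, 2862 by lack of overlap, and 0 to 14 when 1 array was left out. Both counts were 0 with unmoderated variance, with 2 groups only, with every probe set tested, with the replicate block and without the arrays with Y-linked signal. For any difference among the groups (6 genes) it was 10 with an intensity trend, 15 without the dimmer genes, 0 to 15 when 1 array was left out, and 0 with unmoderated variance, with every probe set, with the replicate block and without the arrays with Y-linked signal. Between Jak2VF and WT (0 genes) it was 1034 unadjusted and 1355 by lack of overlap. The replicate block changed no call of the 9 genes, and same-numbered arrays had deviations correlated between -0.23 and 0.48. Pearson correlations between members that pass numbered 0, and 0 to 1 when 1 array was left out (1 without Jak2VF replicate 2). Each member has 1 probe set, so no other probe set of it could be tried, and Cbx8 has no value without the dimmer genes. With 3 arrays per group, intervals of about 0.3 to 0.5 to either side limit what could be seen.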
